A study of Onthophagus taurus with 60 samples.

Results

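The epidermis of the carinated margin, the lateral ridge of the first thoracic segment (T1), was set against the epidermis of the wing of the second thoracic segment (T2) in male prepupae of the dung beetle Onthophagus taurus. Members of the comparison were chosen by tissue alone: the 12 carinated margin libraries and the 12 T2 wing libraries, 24 of the 60 libraries in the series. Both tissues were sequenced as left and right sides of the same individuals, with 6 numbered replicates, and the sides of an animal were summed here, which left 6 carinated margin and 6 T2 wing libraries. Levels of the same transcripts were also read in 6 libraries each of the other prothoracic regions that were taken: the anterior margin, the posterior margin, the dorsal centre of the prothorax (dorsal prothorax here) and the thoracic horn. All groups were males at the prepupal stage, the end of larval life just before the pupa forms. The labels name no treatment, genotype, strain or age in days for any of them, and no driver, clone or pool of animals.

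In beetles the T2 wing becomes the elytron, the hardened forewing that covers the hindwing and the abdomen. The prothorax of living insects bears no wing. Work in another beetle, the red flour beetle Tribolium castaneum, has shown that the carinated margin depends on vestigial, a transcription factor that specifies wing tissue in insects, and the ridge is therefore discussed as a prothoracic counterpart of the wing. The comparison asks in what the messenger RNA of such an edge and of a true wing differ in the same animals.

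Total expected counts ran from 28.53 to 37.86 M per carinated margin library (median 33.39 M) and from 29.39 to 35.57 M per T2 wing library (median 33.98 M). The other prothoracic libraries held one column each and were shallower, from 13.11 to 19.58 M. Levels are CPM, counts scaled to a common library size with TMM factors, a scale that does not correct for transcript length, so levels are compared between tissues and not between transcripts. Same-numbered carinated margin and wing libraries deviated together from their tissue means (r = 0.46 to 0.618 over transcripts, against at most 0.193 for any other pair), and the numbers are used as animals 1 to 6. Only transcripts and locus numbers name the features: 15104 of 23725 transcripts matched 10670 genes of the RefSeq table, with 70.6% of the counts of the 24 libraries, and symbols other than locus numbers belonged to 34 genes. Lists for the wing network, Hox genes, tanning and pigment, cell cycle and markers of other cell types matched 0 genes each, so neither tissue could be checked against its markers. Fewer cells of a kind and less RNA per cell cannot be told apart in these bulk samples.

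The carinated margin and the wing of the same animal differed in many transcripts, mostly by little. Of 13609 tested transcripts, 3966 (29.1%) passed edgeR's quasi-likelihood test with animal as a pairing term (Benjamini-Hochberg adjustment, threshold 0.05), 1973 higher and 1993 lower in the carinated margin. The median size of a called difference was 0.53 on the log2 scale, a fold of 1.44, with quartiles at 0.32 and 1.03. Of the calls, 2931 (73.9%) were under 2-fold. Scaling by total counts in place of TMM moved the median difference of all transcripts by -0.13 and the share of calls that were higher to 30.6%, against 49.7% with TMM, so the near balance of higher and lower calls did not hold with total counts; it was 54.3% with RLE scaling and 54.6% with DESeq2.

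The larger differences lay mostly on the carinated margin's side. At least 2-fold were 1035 transcripts (7.61% of those tested), of which 678 were higher and 357 lower in the carinated margin. At least 4-fold were 291 higher and 123 lower, and at least 16-fold 129 higher and 27 lower. When the size itself was tested as over 2-fold, 381 transcripts (2.8%) were called, 265 higher and 116 lower. The share of 2-fold calls that were higher was 65.5%, and it was 55.7% with total counts.

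Counts moved the same way. Transcripts at least 2-fold higher took 5.94% ± 0.37 of a carinated margin library's counts and 2.27% ± 0.26 of a wing library's (SD, n = 6 each). Transcripts at least 2-fold lower took 0.443% ± 0.069 in the carinated margin and 1.33% ± 0.11 in the wing. These shares describe the transcripts that the comparison itself picked.

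The size of a difference depended on the level at which it could be seen. Below 1 CPM on average over both tissues 11.7% of 2334 transcripts were called, with a median size of 1.45 log2 units, and from 10 to 100 CPM 47.4% of 3879 were called, with a median size of 0.39. Above 1000 CPM 64.9% of 77 transcripts were called, and 4 of them were at least 2-fold higher and 0 at least 2-fold lower. The median size of called differences was 0.40 from 100 to 1000 CPM and 0.51 above 1000 CPM. It was thus largest below 1 CPM, without a steady fall at higher levels. No transcript above 1000 CPM was called at least 2-fold lower in the carinated margin.

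**Figure D1:**
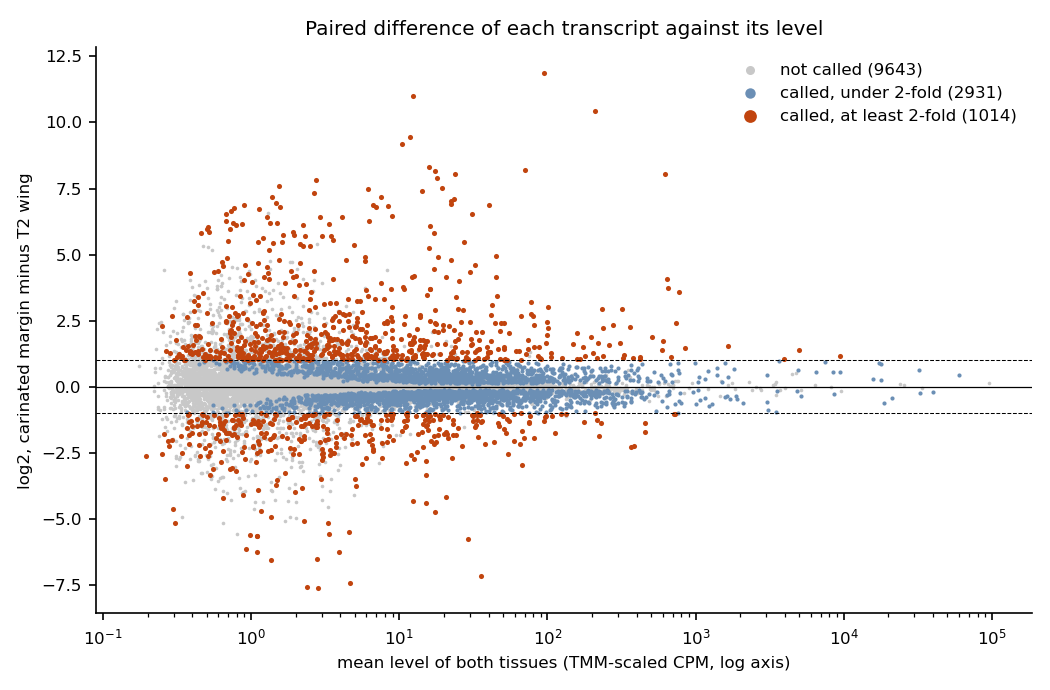
Each point is one of 13588 tested transcripts, with its mean level in both tissues on the horizontal axis (TMM-scaled CPM, log axis). Its paired log2 difference, carinated margin minus T2 wing, is on the vertical axis. Left out are 21 tested transcripts with 0 counts in a tissue, whose fold is only bounded. Those of them that were called do enter the counts by size in the text. Dashed lines mark 2-fold, and the points beyond the upper line outnumber and outreach those beyond the lower one.

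The most extreme transcripts had counts in every carinated margin library and none in any wing library. Passing the filter took the minimum count in at least 6 libraries. A tested transcript with 0 wing counts therefore had to have counts in every carinated margin library. Among all transcripts measured, 39 averaged at least 1 CPM in the carinated margin with 0 wing counts, 18 of which passed the filter and were tested, against 7 with at least 1 CPM in the wing and 0 counts in the carinated margin. At 10 CPM the numbers were 10 and 0. For such transcripts a fold is given as a lower bound, set against 3 counts over the 6 wing libraries together. With 0 in every wing and animal as a term, the paired fit has no spread between animals to measure. Among the named ones its adjusted p fell as the fitted difference grew, and does not rate how even the animals were.

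A set of these was present throughout the prothorax. XM_023051862.1, which matched no gene, had 48.5 to 70.1 CPM in the carinated margin (median 57.6) and 0 in all 6 wings, at least 4366-fold higher (adjusted p = 0.0045). It averaged 65.3 ± 27.3 CPM in the anterior margin, 40.1 ± 6.98 in the posterior margin, 71.7 ± 12.4 in the dorsal prothorax and 50.8 ± 8.69 in the horn (SD, n = 6 each). After a log2 difference, here and below, ± gives a standard error worked back from the F statistic of the test, not the spread between animals. Carinated margin minus anterior margin was -0.11 ± 0.16 log2 units (adjusted p = 0.9) and minus posterior margin 0.53 ± 0.16 (adjusted p = 0.06), neither called. Minus dorsal prothorax (-0.29 ± 0.16, adjusted p = 0.23) and minus horn (0.18 ± 0.16, adjusted p = 0.41) were not called with TMM, and were called with total counts (-0.59 with adjusted p = 0.017 and 0.98 with adjusted p = 4.6e-05).

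LOC111419103 was also seen throughout the prothorax, through a pair of its transcripts. XM_023051863.1 had 25.1 to 35.8 CPM in the carinated margin (median 32.1) and 0 in the wing, at least 2314-fold higher (adjusted p = 0.0058). XM_023051860.1 had 8.91 to 27.1 CPM (median 18.4) and again 0 in the wing, at least 1289-fold higher (adjusted p = 0.0076). Both had counts in every prothoracic region, between 18.7 ± 4.75 and 42.8 ± 6.32 CPM for XM_023051863.1 and between 9.35 ± 4.71 and 22.4 ± 11.1 CPM for XM_023051860.1.

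LOC111427029 had one such transcript, XM_023061976.1, at 23.5 to 36.3 CPM in the carinated margin (median 31.3) and 0 in the wing, at least 2304-fold higher (adjusted p = 0.0058). It averaged 26.6 ± 7.14 CPM in the anterior margin, 30.3 ± 8.55 in the posterior margin, 14.8 ± 3.68 in the dorsal prothorax and 35.5 ± 7.06 in the horn. Carinated margin minus dorsal prothorax was 1.08 ± 0.18 (adjusted p = 9e-05). Summed over all its transcripts, 3 of which were tested, the gene had wing counts, and differed by 7.21 log2 units (adjusted p = 3.1e-07).

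LOC111414917 was a transcript of the margins among the prothoracic regions. Its transcript XM_023046385.1 had 18.7 to 38.1 CPM in the carinated margin (median 31.6) and 0 in the wing, at least 2192-fold higher (adjusted p = 0.0059). The anterior margin, at 94.5 ± 37 CPM, and the posterior margin, at 137 ± 49.9 CPM, stood above the carinated margin, which differed from the first by -1.69 ± 0.35 (adjusted p = 0.0036) and from the second by -2.20 ± 0.35 (adjusted p = 0.00025). Dorsal prothorax and horn had 1.15 ± 0.742 and 0.248 ± 0.274 CPM, under the carinated margin level: its difference was 4.63 ± 0.42 from the dorsal prothorax (adjusted p = 3.1e-08) and 6.88 ± 0.54 from the horn (adjusted p = 4.9e-10). By level, then, the order ran from the posterior and anterior margins through the carinated margin to dorsal prothorax, horn and wing.

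A further set had counts in the carinated margin of all 6 animals, where 2 columns were summed. In the other prothoracic regions, which had 1 column each, its levels varied widely between animals. The filter required counts in all 6 carinated margin libraries of transcripts with next to none in the wing, and required none in the other regions. XM_023058657.1 had 14.6 to 82.1 CPM in the carinated margin (median 40.3) and 0 in the wing, at least 3300-fold higher (adjusted p = 0.0051). That paired p does not measure this spread, and without the pairing the adjusted p was 0.00013. In the fit of 36 libraries described below, XM_023058657.1 was 14.08 ± 3.46 log2 units higher than in the wing (adjusted p = 0.0083). In the posterior margin it ran from 0 in animals 4 and 6 to 116 CPM in animal 2, in the anterior margin from 0 in animals 2 and 5 to 35.1 CPM in animal 1, and in the dorsal prothorax it was 47.3 CPM in animal 2, 52.7 CPM in animal 6 and 0 in the rest. The horn had 0 counts in all 6 libraries. Single carinated margin columns also varied: 3 of the 12 had 0 counts of XM_023058657.1, one each in animals 2, 4 and 5, and the highest had 91.6 CPM, so that it did not pass the filter in either set of columns alone.

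XM_023061471.1 had 6.88 to 35 CPM in the carinated margin (median 17.4) and 0 in the wing, at least 1606-fold higher (adjusted p = 0.0071). XM_023061478.1 had 3.92 to 22.8 CPM in the carinated margin (median 10.1) and 0 in the wing, at least 950-fold higher (adjusted p = 0.0094). One of its 12 carinated margin columns, of animal 2, had 0 counts, and it passed the filter only in the columns numbered 7 to 12. LOC111426781 (XM_023061496.1) had wing counts, with 92.7 to 307 CPM in the carinated margin (median 184) against 0 to 0.101 CPM in the wing (median 0.0406), a difference of 11.88 ± 0.29 log2 units (adjusted p = 8.5e-06). The estimate was 9.11 log2 units with all transcripts of that gene summed, and 13.12 and 10.68 with the columns numbered 1 to 6 and 7 to 12 taken alone.

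In the posterior margin all of these peaked in animal 2, at 70.4 CPM for XM_023061471.1, 109 CPM for XM_023061478.1 and 1064 CPM for LOC111426781, where the next library had 17.1, 0.0635 and 179 CPM. LOC111424928 (XM_023058664.1), named below for its overlapping ranges, also peaked there at 83.4 CPM. That posterior margin library held the highest level of the 36 libraries for each of XM_023058657.1, XM_023061471.1, XM_023061478.1, LOC111426781 and LOC111424928. Without animal 2 the carinated margin and wing still differed in XM_023058657.1, XM_023061471.1, XM_023061478.1 and LOC111426781.

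LOC111413927 (XM_023045072.1) was higher in the carinated margin than in each other tissue. It had 6.63 to 28 CPM there (median 17.1) and 0 in the wing, at least 1432-fold higher (adjusted p = 0.0075). Levels were 0.571 ± 0.697 CPM in the anterior margin, 0.521 ± 0.881 in the posterior margin, 0.457 ± 0.514 in the dorsal prothorax and 0.0929 ± 0.127 in the horn. Its excess over these ran from 5.81 to 7.87 log2 units (adjusted p = 0.00011 for the anterior margin, 5.7e-05 for the posterior margin, 2e-05 for the dorsal prothorax and 1.2e-06 for the horn).

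Among all called transcripts, 5 more stood out in the same way and were singled out after their values were seen, so their levels are a description. XM_023059923.1 had 44.7 to 60.6 CPM in the carinated margin (median 53.1) against 0.415 to 2.36 CPM in the wing (median 1.31), and at most 4.93 CPM in any other prothoracic library. LOC111416850 (XM_023048954.1) had 41.2 to 59.3 CPM (median 44.9) in the carinated margin against 0.109 to 0.78 CPM (median 0.296) in the wing. LOC111419750 (XM_023052610.1) had 30 to 42.6 CPM (median 34.7) against 0.36 to 3.46 CPM (median 0.984) in the wing.

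LOC111425711 (XM_023059933.1) had 46.5 to 73.4 CPM (median 52.5) in the carinated margin against 1.14 to 4.71 CPM (median 3.21) in the wing, and LOC111416848 (XM_023048953.1) had 61.2 to 103 CPM (median 86.9) against 2.92 to 7.09 CPM (median 5.01). The spread over animals within the carinated margin was narrow for all 5. LOC111419750, LOC111425711, LOC111416850 and LOC111416848 follow one another in the reference order of tested genes. In the dorsal prothorax animal 4 was the highest library for each of the 5, at 3.18 to 9.87 CPM.

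**Figure D2:**
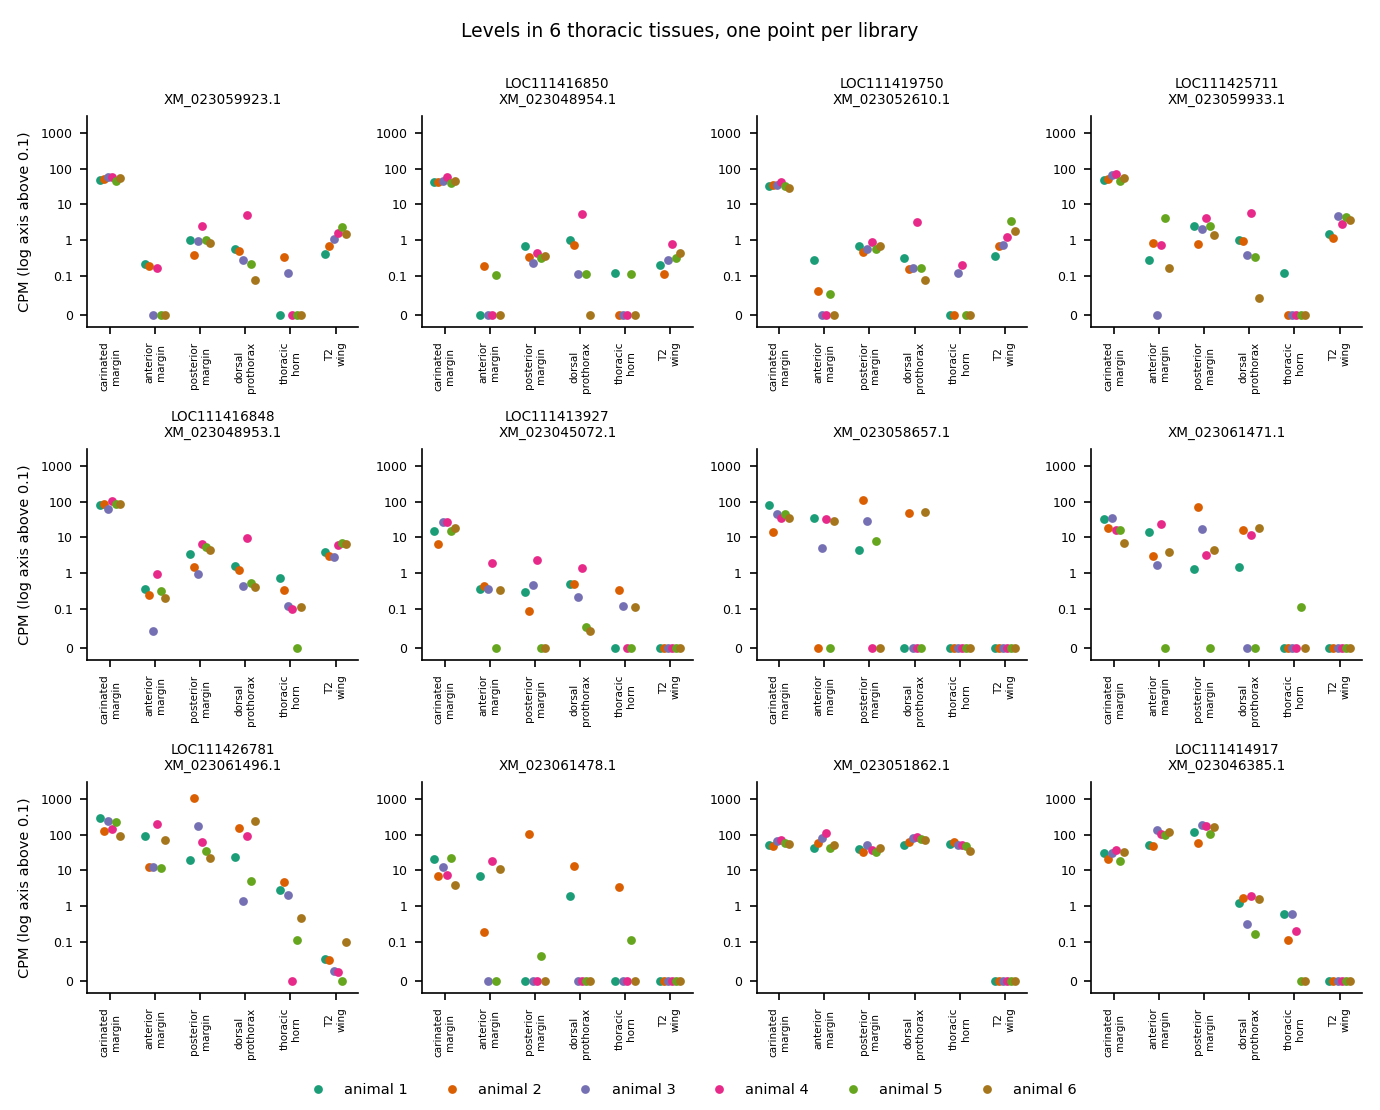
Levels of 12 transcripts in the carinated margin, anterior margin, posterior margin, dorsal prothorax, thoracic horn and T2 wing, one point per library coloured by animal (CPM, log axis above 0.1 and linear below). LOC111413927 and the 5 transcripts before it are high in the carinated margin alone, the 4 after it vary between animals outside it, XM_023051862.1 is even across the prothorax, and LOC111414917 is highest in the posterior margin at 137 ± 49.9 CPM.

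Transcripts lower in the carinated margin were seldom absent from it. XM_023055264.1 had 0.0312 to 2.18 CPM there (median 0.268) against 14.4 to 172 CPM in the wing (median 49.2), a difference of -7.16 ± 0.36 log2 units (adjusted p = 7e-05). The wing level itself differed more than 10-fold between animals, and the animals with the most in the wing, 1 and 3, also had the most in the carinated margin, at 2.18 and 0.62 CPM. It averaged 0.158 ± 0.322 CPM in the posterior margin and 3.24 to 5.08 CPM in the anterior margin, dorsal prothorax and horn, each of which stood above the carinated margin (adjusted p = 0.0035, 0.002 and 0.0062), the horn not under total counts (adjusted p = 0.054).

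LOC111420652 (XM_023053690.1) had 0.314 to 3.73 CPM in the carinated margin (median 0.778) against 24.2 to 125 CPM in the wing (median 46.2), a difference of -5.77 ± 0.29 (adjusted p = 7e-05). LOC111414353 (XM_023045671.1) had 0.99 to 1.39 CPM (median 1.22) against 23.2 to 53.8 CPM in the wing (median 29.2), a difference of -4.73 ± 0.14 (adjusted p = 1.3e-05). Both were close to wing transcripts among these 6 tissues: no other prothoracic region averaged over 0.816 CPM of either.

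Both tested transcripts of LOC111425424 fell together. XM_023059424.1 had 0 to 3.18 CPM (median 1.64) in the carinated margin against 17.5 to 34 CPM (median 31.6) in the wing, a difference of -4.39 ± 0.60 (adjusted p = 0.0026). XM_023059423.1 had 0.716 to 5.16 CPM (median 3.65) against 14 to 29.7 CPM (median 17), a difference of -2.88 ± 0.49 (adjusted p = 0.0063). With all its transcripts summed the gene differed by -3.35 log2 units (adjusted p = 8.9e-06).

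LOC111425442 (XM_023059453.1) had 0 to 4.99 CPM (median 1.42) in the carinated margin, with 0 in animals 4 and 6, against 15.8 to 30.3 CPM (median 22.6) in the wing, a difference of -4.30 ± 1.00 (adjusted p = 0.02). The call did not survive the loss of animal 2 (adjusted p = 0.051) or of animal 3 (adjusted p = 0.06). All transcripts of the gene summed, 5 of which were tested, differed by -3.21 (adjusted p = 0.00022). Posterior margin, dorsal prothorax and horn had 0 counts of XM_023059453.1 in 18 libraries. Its anterior margin counts came from animals 4 and 5.

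The rest of the 10 lowest ran as follows. XM_023064681.1 had 0.903 to 4.35 CPM (median 2.07) in the carinated margin against 26.1 to 55 CPM (median 39.4) in the wing, a difference of -4.15 ± 0.22 (adjusted p = 7.7e-05), and here the carinated margin had the lowest mean of the 6 tissues. LOC111424700 (XM_023058334.1) had 11.7 to 21.3 CPM (median 13.8) against 68.2 to 178 CPM (median 121), a difference of -2.95 ± 0.19 (adjusted p = 0.00017). In all 10 the wing had the highest mean of the 6 tissues, where 29.1% of all tested transcripts did. Their choice by an excess in the wing itself favours this.

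A pair of them separated the prothoracic regions. XM_023044414.1 had 1.63 to 5.38 CPM (median 2.38) in the carinated margin against 22.3 to 33.1 CPM (median 27.2) in the wing, a difference of -3.31 ± 0.30 (adjusted p = 0.00053). The dorsal prothorax, at 19.8 ± 2.92 CPM, did not differ from the wing by the test (-0.46 ± 0.76, adjusted p = 0.69) and stood above the carinated margin (carinated margin minus dorsal prothorax -2.82 ± 0.82, adjusted p = 0.014). LOC111415720 (XM_023047538.1) had 2.24 to 6.09 CPM (median 3.23) in the carinated margin against 13.3 to 50.6 CPM (median 24.7) in the wing, a difference of -2.81 ± 0.09 (adjusted p = 1.8e-05). Its anterior and posterior margins lay between, at 12.3 ± 6.88 and 12.4 ± 5.04 CPM, each above the carinated margin (adjusted p = 0.0016 and 0.00038) and below the wing (adjusted p = 0.0061 and 0.021).

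**Figure D3:**
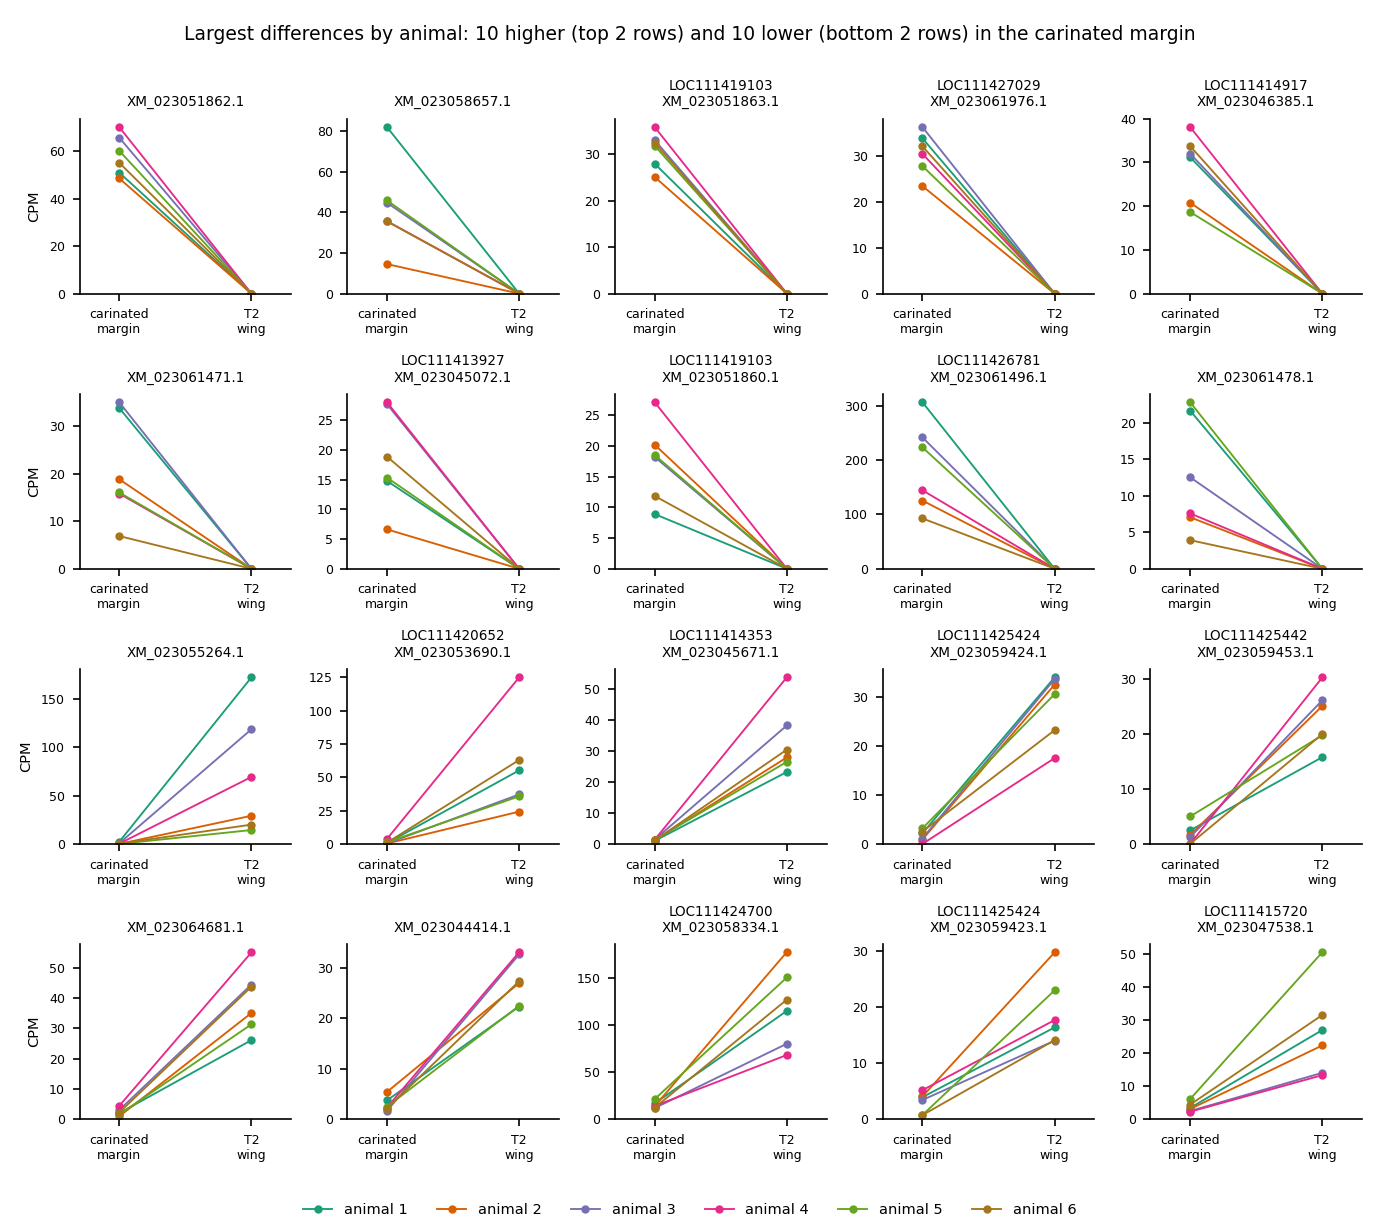
Levels of the 10 transcripts with the largest difference in each direction (CPM, linear axes from 0), with the carinated margin on the left and the T2 wing on the right of each panel and one line per animal. All 6 lines run the same way in each of the 20 panels, which the choice of these transcripts required.

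Abundant transcripts differed by smaller factors than the extreme ones. LOC111418336 (XM_023050850.1) had 7505 to 19450 CPM in the carinated margin (median 12738) against 2871 to 9776 CPM in the wing (median 5626), a difference of 1.17 ± 0.12 log2 units (adjusted p = 0.00097). The ranges overlapped while all 6 animals went the same way, and without the pairing the call was lost (adjusted p = 0.065). The horn averaged 23291 ± 6324 CPM and the dorsal prothorax 5316 ± 2502 CPM; carinated margin minus horn was -0.89 with TMM (adjusted p = 9.4e-07) and -0.10 with total counts (adjusted p = 0.42).

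LOC111427833 (XM_023063175.1) had 3982 to 8936 CPM (median 7517) in the carinated margin against 998 to 3542 CPM (median 3028) in the wing, a difference of 1.40 ± 0.13 (adjusted p = 0.00051). XM_023065039.1 had 3545 to 8004 CPM (median 5227) against 1604 to 3794 CPM (median 2453), a difference of 1.06 ± 0.13 (adjusted p = 0.0017). The dorsal prothorax had far less of XM_023065039.1, 441 ± 171 CPM, than either tissue: carinated margin minus dorsal prothorax was 3.64 ± 0.17 (adjusted p = 5.2e-14) and dorsal prothorax minus wing -2.56 ± 0.16 (adjusted p = 2.7e-12).

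LOC111421717 (XM_023054897.1) had 1987 to 3573 CPM (median 2246) in the carinated margin against 602 to 1567 CPM (median 748) in the wing, a difference of 1.53 ± 0.07 (adjusted p = 5.9e-05). LOC111427873 (XM_023063227.1) had 1021 to 1563 CPM (median 1196) against 385 to 519 CPM (median 454), a difference of 1.47 ± 0.05 (adjusted p = 2.1e-05). For this transcript the horn went the other way, at 269 ± 109 CPM, below the wing (horn minus wing -0.81 ± 0.17, adjusted p = 0.00018), while the anterior margin had the most, 1962 ± 393 CPM.

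LOC111414144 (XM_023045338.1) had the largest difference of any named transcript this abundant. It had 878 to 2607 CPM in the carinated margin (median 1174) against 61.1 to 192 CPM in the wing (median 109), a difference of 3.58 ± 0.14 log2 units (adjusted p = 3.4e-05). The ranges lay well apart. Its level was 1635 ± 449 CPM in the anterior margin, 732 ± 229 in the posterior margin, 774 ± 339 in the dorsal prothorax and 6495 ± 2798 in the horn, each above the wing (adjusted p from 1.2e-18 to 1.5e-12).

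The most abundant transcripts that were at least 2-fold lower in the carinated margin reached fewer CPM. LOC111413729 gave a pair of them: XM_023044812.1 had 319 to 549 CPM (median 500) in the carinated margin against 572 to 1309 CPM (median 1000) in the wing, a difference of -1.03 ± 0.07 (adjusted p = 0.00022). XM_023044813.1 had 154 to 314 CPM (median 258) against 300 to 1013 CPM (median 676), a difference of -1.35 ± 0.10 (adjusted p = 0.00028). XM_023057949.1 had 263 to 612 CPM (median 502) against 435 to 1552 CPM (median 860), a difference of -1.02 ± 0.14 (adjusted p = 0.0028). The horn had less of each than the carinated margin, 69.9 ± 26.1, 44.1 ± 26.6 and 34.3 ± 8.56 CPM.

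LOC111415391 (XM_023047071.1) had 182 to 277 CPM (median 210) in the carinated margin against 593 to 932 CPM (median 657) in the wing, a difference of -1.70 ± 0.05 (adjusted p = 1.2e-05). XR_002706382.1, a non-coding RNA by its RefSeq prefix, had 97.4 to 162 CPM (median 122) against 514 to 703 CPM (median 611), a difference of -2.29 ± 0.11 (adjusted p = 7e-05). LOC111426935 (XM_023061843.1) had 109 to 165 CPM (median 134) against 479 to 697 CPM (median 653), a difference of -2.24 ± 0.09 (adjusted p = 3.4e-05). The horn, at 665 ± 153 CPM, was not called against the wing in LOC111426935 with TMM (0.08 ± 0.15, adjusted p = 0.69) and was lower with total counts (-0.84, adjusted p = 1.1e-05), whereas the anterior margin, posterior margin and dorsal prothorax, at 105 to 195 CPM, were below the wing, with differences of -2.62 to -1.70.

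The 10 most abundant transcripts over both tissues differed by at most 0.64 log2 units. XM_023050859.1, the most counted of all, had 88733 to 129855 CPM in the carinated margin (median 98208) against 81471 to 107401 CPM in the wing (median 89901). The difference of 0.16 ± 0.06 was not called (adjusted p = 0.07), though DESeq2 called it (adjusted p = 0.00016). LOC111418334 (XM_023050848.1) had 58121 to 83103 CPM (median 66815) against 43817 to 58125 CPM (median 51138), a difference of 0.43 ± 0.07 (adjusted p = 0.0042).

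LOC111418349 (XM_023050869.1) had 29244 to 55506 CPM (median 36842) in the carinated margin against 18464 to 31040 CPM (median 26148) in the wing, a difference of 0.64 ± 0.08 (adjusted p = 0.0021, and 0.06 without the pairing). XM_023046200.1 had 11758 to 18573 CPM (median 14165) against 18139 to 27606 CPM (median 22020), a difference of -0.62 ± 0.04 (adjusted p = 0.00015). LOC111424769 (XM_023058440.1) had 15700 to 20823 CPM (median 18044) against 20114 to 29744 CPM (median 22382), a difference of -0.41 ± 0.07 (adjusted p = 0.0056, and 0.06 without the pairing). In each of these all 6 animals went the same way.

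XM_023065439.1 (-0.20 ± 0.06, adjusted p = 0.049) and LOC111416385 (XM_023048391.1, -0.22 ± 0.07, adjusted p = 0.048) passed narrowly, in 5 of 6 animals each. Without animal 1, 3, 4, 5 or 6 both calls were lost (adjusted p = 0.1 to 0.12), as they were without the pairing (adjusted p = 0.36 and 0.31). LOC111414730 (XM_023046166.1) differed by -0.04 ± 0.06 (adjusted p = 0.65), and was lower under total counts (-0.17, adjusted p = 0.034).

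The other 2 of the 10 differed far more between animals than between the tissues. XM_023048902.1 had, in animals 1 to 6, 34084, 32195, 33583, 9785, 37568 and 0 CPM in the carinated margin and 38033, 28376, 26212, 8477, 38680 and 0.101 CPM in the wing. Animal 6 had next to none of it in any of the 6 tissues, at most 0.459 CPM, where animals 1, 2, 3 and 5 had 16379 CPM or more in each. The tissues differed by 0.09 ± 0.13 (adjusted p = 0.63). LOC111423198 (XM_023056446.1) had 31897 to 44952 CPM in the carinated margins of animals 2, 4 and 6 and 12562 to 16723 CPM in those of animals 1, 3 and 5, and the wings split the same way, with 28059 to 46788 and 11308 to 16556 CPM. Its tissue difference was 0.06 ± 0.06 (adjusted p = 0.46).

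Many calls rested on the pairing by animal. Of the 3966 calls 3705 went the same way in all 6 animals, as did 4677 (34.4%) of all tested transcripts. The ranges of the tissues lay apart in 1240 calls, against 1298 (9.54%) of all tested transcripts, and overlapped in 2726. Without the pairing term 1904 transcripts were called, 1875 of them among the 3966. That fit called 1196 of the 1240 calls with ranges apart and 679 of the 2726 with overlapping ranges.

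The largest differences that were called although the ranges overlapped, chosen after their values were seen, are a description. LOC111427417 (XM_023062555.1) had 2.72 to 49.9 CPM in the carinated margin (median 25.4) against 0.0975 to 3.98 CPM in the wing (median 1.21), and a fitted difference of 4.19 ± 0.15. Animal 4 had 2.72 CPM in its carinated margin and 0.0975 CPM in its wing, and animal 5 had 49.9 and 3.98 CPM. The level thus varied over 10-fold between animals in both tissues, and the margin stood above the wing in every one, as the choice required.

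LOC111423797 (XM_023057154.1) had 44.8 to 241 CPM (median 122) in the carinated margin against 3.49 to 47 CPM (median 10.4) in the wing, LOC111423034 (XM_023056291.1) 21.6 to 138 CPM (median 64.5) against 1.17 to 24.9 CPM (median 9.22), and LOC111425644 (XM_023059797.1) 0.113 to 3.92 CPM (median 1.42) against 2.79 to 25 CPM (median 7.53). The first pair differed by 3.21 ± 0.34 and 2.74 ± 0.34 log2 units and LOC111425644 by -2.67 ± 0.30. The horn had most of LOC111425644, 43 ± 29.7 CPM, and the dorsal prothorax little of LOC111423034, 3.25 ± 2.04 CPM.

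LOC111424928 had 1.93 to 28.6 CPM (median 17.1) in the carinated margin against 0.453 to 3.46 CPM (median 0.859) in the wing, and its difference of 3.72 ± 0.70 was 0.84 in the columns numbered 1 to 6 and 4.26 in those numbered 7 to 12. XM_023053740.1 had 7.5 to 31.7 CPM (median 14.7) against 0.111 to 9.29 CPM (median 0.659), a difference of 3.72 ± 0.87. The other prothoracic regions averaged 1.83 to 2.69 CPM and the wing 2.87 ± 3.93 CPM, and without the pairing the call was lost (adjusted p = 0.086).

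**Figure D4:**
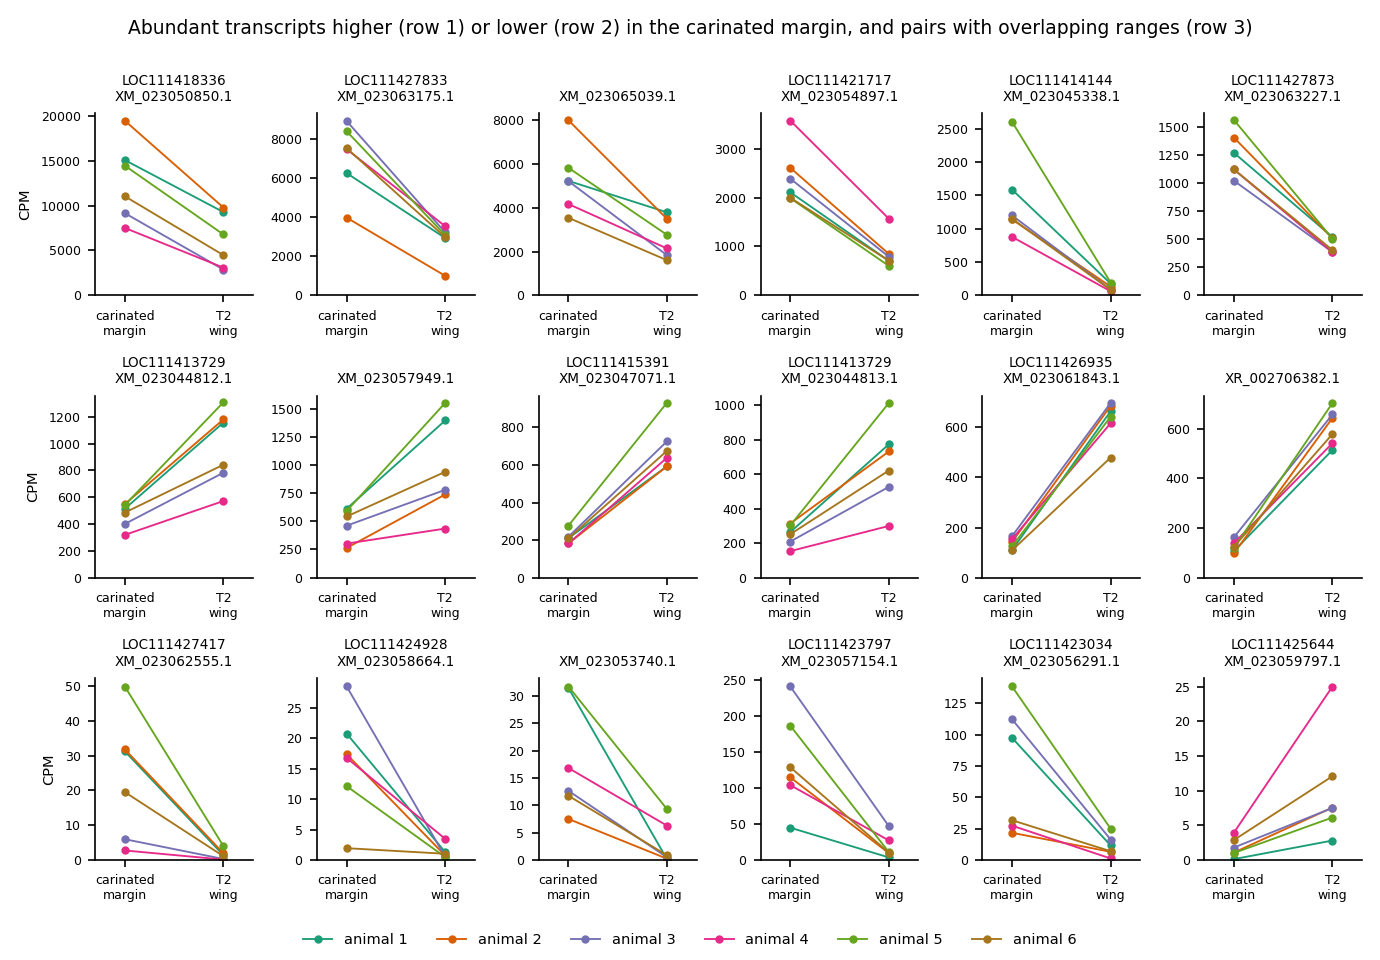
Levels by animal (CPM, linear axes from 0; carinated margin left, T2 wing right, one line per animal) of the most abundant transcripts at least 2-fold higher in the carinated margin in the top row and at least 2-fold lower in the middle row, and of the 6 largest differences with overlapping ranges in the bottom row. In the bottom row the lines are spread widely, as for LOC111427417 with 2.72 to 49.9 CPM in the carinated margin. They run one way, which the choice of these transcripts required.

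The columns of each tissue carry no side, and those numbered 1 to 6 and 7 to 12 were taken to hold one library each of the same animals, whose counts deviated together. Over all 11533 transcripts tested in both sets, the differences fitted in each correlated at r = 0.71. They had the same sign in 822 of the 824 transcripts that were at least 2-fold overall and tested in both, with a median gap of 0.26 log2 units between the sets. These 824 were picked on the sum of both sets, which itself favours the same sign in each. By animal, the median absolute difference of the 4829 transcripts at 10 CPM or more ran from 0.24 in animal 4 to 0.30 in animal 5.

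The transcripts that differed at least 2-fold were then read in the rest of the prothorax. A fit of 36 libraries (6 tissues, animal as a term, 14400 transcripts) gave each prothoracic region against the wing. In that fit 16.8% of transcripts were called for carinated margin minus wing, where the paired fit of 12 libraries called 29.1%. The contrasts against the wing all share the wing libraries that picked the transcripts, as those against the other regions share the carinated margin libraries. In the same fit the share of transcripts called was 24.5% for anterior margin minus wing, 26.5% for posterior margin minus wing, 37.7% for dorsal prothorax minus wing and 49.3% for horn minus wing. For carinated margin minus anterior margin it was 4.99%, minus posterior margin 4.97%, minus dorsal prothorax 21.6% and minus horn 43.1%. Of the calls of carinated margin minus anterior margin 56.5% were higher with TMM and 21.0% with total counts, of those minus posterior margin 64.5% and 36%, of those minus dorsal prothorax 64.5% and 22.0%, and of those minus horn 65.9% and 92.3%. Against the wing the shares were 46.9% with TMM and 57.3% with total counts for the anterior margin and 41.7% and 60.3% for the dorsal prothorax, and 44.5% with TMM and 54.9% with RLE scaling for the posterior margin.

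Of the 678 transcripts at least 2-fold higher in the carinated margin, 671 were in that fit. Their median difference from the wing was 1.72 log2 units in the carinated margin, which chose them, and 1.53 in the anterior margin, 1.56 in the posterior margin, 1.45 in the dorsal prothorax and 1.38 in the horn. The lower and upper quartiles were 0.92 and 2.77 in the anterior margin and 0.09 and 2.65 in the horn. Over all 14400 transcripts the medians were -0.002 in the carinated margin, -0.06 in both other margins, -0.10 in the dorsal prothorax and -0.24 in the horn. Setting transcripts with 0 counts in a tissue to their bound moved the horn's median to 1.41 and no other by as much as 0.01. All these medians are with TMM and were not computed with other scalings. In horn minus wing the share of higher calls was 37.9% with TMM and 10.4% with total counts, so the size of the horn's median rests on the scaling.

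Of the 357 transcripts at least 2-fold lower, 336 were in the fit, and their medians against the wing were -1.63 in the carinated margin, -1.77 in the anterior margin, -2.13 in the posterior margin, -2.24 in the dorsal prothorax and -1.65 in the horn. These medians are with TMM too, and no test was made of the medians of either set.

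By mean level, the wing was the lowest of the 6 tissues in 457 of the 678 (67.4%), and the highest in 287 of the 357 (80.4%), where it was lowest in 18.9% and highest in 29.1% of all tested transcripts. The choice of these transcripts alone raises both shares. The highest tissue of the 678 was the carinated margin in 25.1% (9.52% of all tested), the horn in 27.3% (23.2%), the dorsal prothorax in 21.2% (19.9%), the posterior margin in 14.2% (8.80%) and the anterior margin in 12.2% (9.49%). Among the 357 the lowest was the carinated margin in 7.56% (4.18% of all tested), the dorsal prothorax in 29.4% (17.2%), the horn in 29.1% (40.8%), the posterior margin in 23.8% (9.21%) and the anterior margin in 8.40% (9.10%), and the horn was highest in 15.7% (23.2%). Horn libraries had TMM factors of 0.532 to 0.651, against 0.893 to 1.16 in the carinated margin and wing, and under total counts the share of higher calls in horn minus wing was 10.4%, against 37.9% with TMM.

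**Figure D5:**
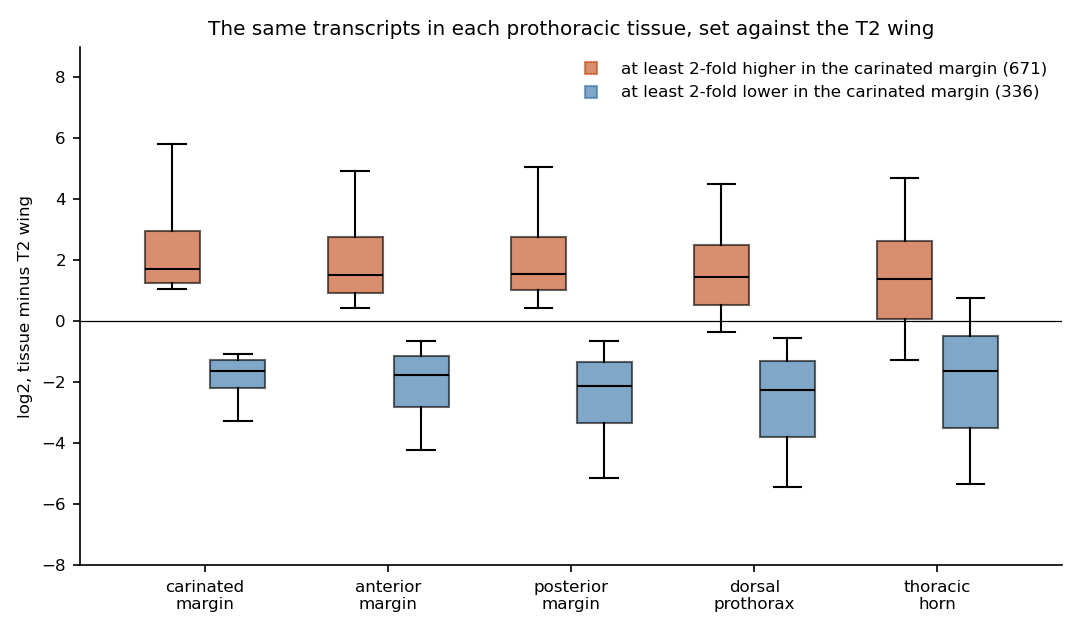
Difference from the T2 wing (log2, from the fit of 36 libraries) in each prothoracic region for the 671 transcripts at least 2-fold higher and the 336 at least 2-fold lower in the carinated margin; boxes show the median and quartiles and whiskers the range from the 10th to the 90th percentile. With TMM scaling, the only one used here, medians of the first set lie between 1.38 and 1.72 and those of the second between -2.24 and -1.63.

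Summed per gene, with each transcript that matched no gene kept as a unit of its own, 4518 of 11218 units were called (40.3%). Of these 2208 were higher and 2310 lower in the carinated margin. At least 2-fold were 983 units (8.76%), 636 higher and 347 lower. In 45 of 1560 genes with at least 2 tested transcripts, transcripts were called in opposite directions, and in 19 of these the gene's sum was not called. Expected counts divide reads among the transcripts of a gene and among near-identical genes, so that a transcript's level is less certain than its gene's.

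In 3 of the 45 both transcripts differed at least 2-fold. In LOC111422534 XM_023055753.1 had 1.78 to 12.4 CPM (median 3.78) in the carinated margin against 0 to 0.482 CPM (median 0) in the wing, while XM_023055738.1 had 10.4 to 16.1 CPM (median 13.9) against 25.5 to 90.5 CPM (median 52.7). The differences were 7.34 ± 1.29 (adjusted p = 0.007) and -1.90 ± 0.27 (adjusted p = 0.0032), and the gene's sum differed by -0.80 ± 0.09 (adjusted p = 0.00045). All 6 animals showed both.

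In LOC111413729 XM_023044815.1 had 27.4 to 57.6 CPM (median 39.9) in the carinated margin against 6.36 to 13.1 CPM (median 11.1) in the wing, a difference of 1.99 ± 0.15 (adjusted p = 0.0003), while the abundant XM_023044812.1 and XM_023044813.1 were lower, as given above. The sum over its transcripts differed by -0.99 ± 0.08 (adjusted p = 0.00014). In LOC111426555 XM_023061133.1 had 29.4 to 45.4 CPM (median 34.3) against 7.35 to 16.7 CPM (median 10.3), a difference of 1.74 ± 0.16 (adjusted p = 0.00062), and XM_023061138.1 0.697 to 2.31 CPM (median 1.03) against 0.439 to 5.76 CPM (median 4.16), a difference of -1.37 ± 0.41 (adjusted p = 0.046). XM_023061138.1 was lower in 5 of 6 animals, and the sum of LOC111426555 was higher, by 1.12 ± 0.05 (adjusted p = 1e-05).

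Genes with large differences lay side by side in places. In the RefSeq order of tested genes, 11 runs of at least 3 adjacent genes were all at least 2-fold in one direction, 7 runs of 27 genes higher and 4 runs of 12 genes lower in the carinated margin. Gene order comes from an assembly that need not be the one the reads were counted on, so no coordinates are given. Runs were looked for after the differences were known and are a description. Of all 11218 units in the gene sums, 636 were at least 2-fold higher and 347 lower. How many runs these shares alone would give was not computed, and whether near-identical neighbours shared reads was not tested.

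The longest run held 7 genes, LOC111414409, LOC111414408, LOC111414411, LOC111414405, LOC111414406, LOC111414442 and LOC111414425. LOC111414411 averaged 1214 ± 456 CPM in the carinated margin and 251 ± 150 CPM in the wing (SD, n = 6 each), LOC111414406 148 ± 46.7 and 47.2 ± 14.7 CPM, and LOC111414425 75.5 ± 27.6 and 9.08 ± 4.00 CPM. LOC111414409 had 9.98 to 22.1 CPM (median 16.3) in the carinated margin against 0.0536 to 0.38 CPM (median 0.0642) in the wing. It was also seen in the horn, at 13.0 ± 8.10 CPM, and barely in the anterior margin, posterior margin and dorsal prothorax, at 0.316 ± 0.0855, 0.0765 ± 0.0886 and 0.314 ± 0.423 CPM.

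A run of 4 joined genes with unlike patterns in the rest of the prothorax. LOC111418807 averaged 70.0 ± 11.7 CPM in the carinated margin and 27.7 ± 1.91 CPM in the wing, with 76.3 ± 9.68 and 101 ± 22.2 CPM in the anterior and posterior margins and 5.82 ± 4.36 CPM in the dorsal prothorax. LOC111418893 averaged 39.0 ± 27.6 CPM in the carinated margin and 2.38 ± 2.08 CPM in the wing, and 152 ± 113 CPM in the horn. LOC111418874 had 5.06 to 32.8 CPM (median 13.4) in the carinated margin against 0 to 0.439 CPM (median 0.0521) in the wing, and the run closed with LOC111418890, at 0.975 ± 0.305 CPM in the carinated margin and 0 counts in the wing. The other run of 4 was the carinated margin group of LOC111419750, LOC111425711, LOC111416850 and LOC111416848.

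In 3 of the 4 lower runs no gene averaged more than 6.06 CPM in the wing. LOC111429203, LOC111429201 and LOC111429202 differed by -2.58 ± 0.32, -3.63 ± 0.40 and -1.98 ± 0.36 log2 units, with wing levels of 0.874 ± 0.207, 2.73 ± 0.486 and 0.468 ± 0.134 CPM. The remaining run was that of LOC111426962, LOC111426965 and LOC111426951. LOC111426962 had 40.0 to 323 CPM (median 72.8) in the carinated margin against 108 to 641 CPM (median 150) in the wing, and 1272 ± 761 CPM in the horn.

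Genes with a symbol other than a locus number gave 43 transcripts in the test, of which 11 were called, 6 higher and 5 lower in the carinated margin, a share of 25.6% beside the 29.1% of all tested. The symbols are given as the table has them, with no function assigned. The 6 higher were CB (1.39 ± 0.30, adjusted p = 0.016), CNB (0.74 ± 0.09, adjusted p = 0.0014), MR (0.46 ± 0.12, adjusted p = 0.027), Rab3-GA (0.45 ± 0.05, adjusted p = 0.0013), betaCO (0.24 ± 0.03, adjusted p = 0.0019) and beta'CO (0.20 ± 0.04, adjusted p = 0.015). CB was the only one of the 11 at 2-fold or more (not called when tested as over 2-fold, adjusted p = 0.66), with 0.566 to 2.16 CPM (median 0.907) in the carinated margin against 0.111 to 0.734 CPM (median 0.514) in the wing. CNB had 27.7 to 44.2 CPM (median 38.1) against 16.6 to 27.5 CPM (median 22.7).

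The 5 lower were EDT (-0.48 ± 0.09, adjusted p = 0.0099), S1 with XM_023049043.1 (-0.45 ± 0.13, adjusted p = 0.047) and XM_023049042.1 (-0.25 ± 0.07, adjusted p = 0.03), CRM (-0.30 ± 0.09, adjusted p = 0.048) and ND-AC (-0.30 ± 0.05, adjusted p = 0.0064). The call of CB was lost without the pairing (adjusted p = 0.069), in the columns numbered 7 to 12 alone (adjusted p = 0.067) and in the fit of 36 libraries (adjusted p = 0.07). CRM was not called when any of the 6 animals was left out (adjusted p = 0.061 to 0.12). Both S1 calls and that of MR were lost without animal 1 (adjusted p = 0.06 to 0.094), 3 (0.058 to 0.082) or 4 (0.059 to 0.11); the loss of animal 6 ended both S1 calls and that of animal 5 ended MR and XM_023049043.1. With total counts neither betaCO nor beta'CO was called, at 0.11 (adjusted p = 0.057) and 0.08 (adjusted p = 0.3). With all its transcripts summed, 6 of which were tested, MR differed by -0.01 (adjusted p = 0.77).

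Non-coding RNAs by RefSeq prefix made up 696 of the transcripts in the test, and 141 were called (20.3%, beside 29.1% of all tested), 107 higher and 34 lower, where all calls were 1973 higher and 1993 lower. At least 2-fold were 8.05% of them, beside 7.61% of all tested, 42 higher and 14 lower. The libraries held polyadenylated RNA.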

How the data were processed

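Per the labels' protocols, epidermal RNA was purified with a Qiagen RNeasy Plus Micro kit and turned into libraries by Illumina's TruSeq Stranded mRNA chemistry. Per the submitters' processing notes the tools were RSEM 1.3.0, Bowtie2 2.3.2, Trimmomatic 0.32 and DESeq2, in no stated order. Which genome build, annotation release and strand setting served the counting is not stated in those notes or in the labels. The deposited values are expected counts for 23725 RefSeq transcripts, as RSEM estimates them, and 29.71% lay over 0.001 from a whole number. Columns of the carinated margin and the wing carry no side. Column k deviated from its tissue mean together with column k+6 (r = 0.237 to 0.402 in the carinated margin and 0.264 to 0.496 in the wing, against at most 0.0963 and 0.151 for other pairs), and these were summed. Across the 15 pairs of thoracic tissues same-numbered libraries correlated at r = 0.213 to 0.618, each library best with its own number, so the number served as animal.

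Sums were rounded, filtered with filterByExpr (minimum count 10), scaled by TMM over the 36 thoracic libraries and fitted, with tissue and animal as terms, to the 12 libraries in edgeR 4.0.16 (R 4.3.3, with limma 3.58.1), at a Benjamini-Hochberg adjusted p under 0.05; glmTreat tested for over 2-fold. The 36-library fit served the other contrasts. The test was tried on simulated counts. No gene lists could be applied. Transcripts are named as the 10 largest differences each way among calls with at least 10 CPM in the higher tissue and 6 animals in one direction, the 6 most abundant 2-fold calls each way, the 10 most abundant overall and called symbols; others are said to be chosen later. Members and lists were chosen with earlier results of these data known. Alternatives were RLE, total counts, TMM on 12 libraries, other filters, DESeq2 1.42.0, no pairing, columns of one set, all 36 libraries, gene sums and leaving out each animal. Limits on counts of 0 cover counting error only. Support structures and dorsal head were not used.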

Additional observations from a re-analysis of the deposited data

Results flagged for a closer look

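Of 106 groups of 6 libraries (53 named transcripts in each tissue) 9 held 0 throughout and could not be tested, and of the other 97, 7 held a library far from the other 5 by Dixon's test, which marks about 1 group in 20 by chance. In the carinated margin XM_023055264.1 reached 2.18 CPM in animal 1, where the next library had 0.62 CPM. LOC111420652 reached 3.73 CPM in animal 4 beside 1.22 CPM, and XM_023050859.1 reached 129855 CPM in animal 2 beside 102781 CPM. Rab3-GA reached 62.6 CPM in animal 2 beside 42 CPM. In the T2 wing LOC111427833 dropped to 998 CPM in animal 2, where the next library had 2934 CPM, and LOC111426935 to 479 CPM in animal 6 beside 616 CPM. LOC111421717 reached 1567 CPM in the wing of animal 4 beside 847 CPM. In all 7 the same animal was also the highest or the lowest in the paired tissue, on the same side.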

How the results depend on the processing

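Without the replicate block (animal as a term) 1904 transcripts were called in place of 3966. The columns numbered 1 to 6 or 7 to 12 alone, with lower depth, gave 2619 and 2431, and 239 and 234 in place of 381 tested as over 2-fold; the fit of all 36 libraries gave 2426, for which the cause was not tested. Leaving out one animal gave 2997 to 3335. RLE gave 3887, total counts 4484, no filter 3421, a minimum count of 50 3726 and DESeq2 5141, all within 1.5 times. Without the replicate block the other contrasts gave 1941 calls for anterior margin minus wing (3526 with it), 2217 for posterior margin minus wing (3813), 182 for carinated minus anterior margin (718), 202 for carinated minus posterior margin (716) and 1565 for carinated margin minus dorsal prothorax (3111). Carinated minus anterior margin gave 1104 with total counts and 444 to 579 without one animal, lowest without animal 5 (444) and 6 (458); carinated minus posterior margin gave 440 to 788, lowest without animal 6. RLE or total counts moved the share of higher calls by over 10 percentage points in each of these contrasts, as for carinated margin minus horn (65.9% with TMM, 92.3% with total counts, 53.0% with RLE). For carinated margin minus wing 810 values of named transcripts kept direction and side of the threshold, 82 lost and 4 gained the call, and 1 turned: MR at -0.013 with transcripts summed. In contrasts with the horn more turned: 6 with total counts and 1 with RLE for carinated margin minus horn, and 7 with total counts for horn minus wing. The over-2-fold test was not run in DESeq2 or the 36-library fit. Depth limits calls below 1 CPM.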
